A study of Mus with 5 samples.

Results

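Binding of RARα and BATF was examined at 5 genes of the T cell exhaustion programme, the nuclear receptor genes Nr4a1, Nr4a2 and Nr4a3 and the TOX family genes Tox and Tox2. The data were peak lists from chromatin immunoprecipitation followed by sequencing (ChIP-seq), in which DNA fragments held by a protein are recovered with an antibody and places where fragments pile up are called as peaks. Every peak whose annotation named one of the 5 genes was taken, which gave 27 of the 27480 peaks in 4 lists. Of these, 2 were RARα peaks in control cells, 0 were RARα peaks with retinoic acid (RA), 13 were BATF peaks in control cells and 12 were BATF peaks with RA. BATF peaks were thus found at all 5 genes in both conditions. RARα peaks were found at Nr4a1 and Tox alone, in control cells alone, and the Tox peak held only 12 fragments. Of all protein-coding genes, BATF peaks named 46.2% in control cells and 36.4% with RA, and RARα peaks 6.85% and 3.05%. The absence of RARα peaks with RA therefore does not set these 5 genes apart from other genes. The RARα and BATF lists also differ in length and in calling cutoff, so their counts do not compare the binding of the proteins.

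NR4A proteins are orphan nuclear receptors whose genes are switched on within a short time of T cell receptor signaling, downstream of calcium and NFAT. TOX and TOX2 are DNA-binding proteins of the HMG-box family. Both families are known from chronically stimulated CD8 T cells, where they act with NFAT to sustain inhibitory receptors and the exhausted state. BATF is a short AP-1 protein that pairs with JUN proteins and binds DNA together with IRF4 in activated T cells. RARα is a nuclear receptor that binds DNA with RXR and changes its co-regulators when it binds RA.

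The cells were CD8 T cells from the spleen of wild-type mice, labelled as naive at isolation, and the labels give no age. In every group the cells had been stimulated through CD3 and CD28 by antibodies, with IL-2 added, over 24 h. A rest of 24 h followed, with IL-2 at 100 U/ml, and then 1 h in which RA was absent (control) or present at 50 nM. Chromatin was collected with anti-RARα, anti-BATF or normal rabbit IgG. The treatment labels name a different interleukin for each group, whereas the growth protocol names IL-2, and they do not say whether the IgG cells received RA. Each list had been called on 2 pooled ChIP files against the same IgG file, and the sources used here do not say whether the pooled files came from separate cultures. With 1 list per condition, replicate spread is unknown, and differences between conditions are described without a test. The identity of the cells cannot be checked against marker genes, since peaks measure binding and not expression.

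The RARα pools were of almost one size, at 22655611 fragments in control cells and 22475060 with RA. BATF had 23110180 and 16424269, and the IgG file 11410673. The BATF pool with RA thus had 71.1% of the fragments of its control. The lists held 1172, 597, 15812 and 9899 peaks in the same order. A peak is described below by the fragments that cover its summit, by those fragments per 1000000 of the pool (FPM), and by its fold enrichment, the summit level plus 1 over the local IgG level plus 1. Intervals on fragments are exact 95% Poisson intervals, those on ratios are exact conditional 95% intervals and those on shares are Wilson 95% intervals, and all of them cover counting error only. Positions are in mm10, and gene intervals are those of RefSeq for GRCm38.p6, the same assembly.

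Among 21900 protein-coding genes, 46.2% were named by at least 1 BATF control peak, 36.4% by a BATF peak with RA, 6.85% by a RARα control peak and 3.05% by a RARα peak with RA. The 5 genes stood at 5 of 5, 5 of 5, 2 of 5 and 0 of 5 in these lists. A BATF peak is therefore common among genes of these cells, and a RARα peak is not. By gene, the BATF lists held 3 control and 2 RA peaks for Nr4a1, 2 and 1 for Nr4a2, 4 and 6 for Nr4a3, 2 and 1 for Tox, and 2 and 2 for Tox2.

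**Figure D1:**
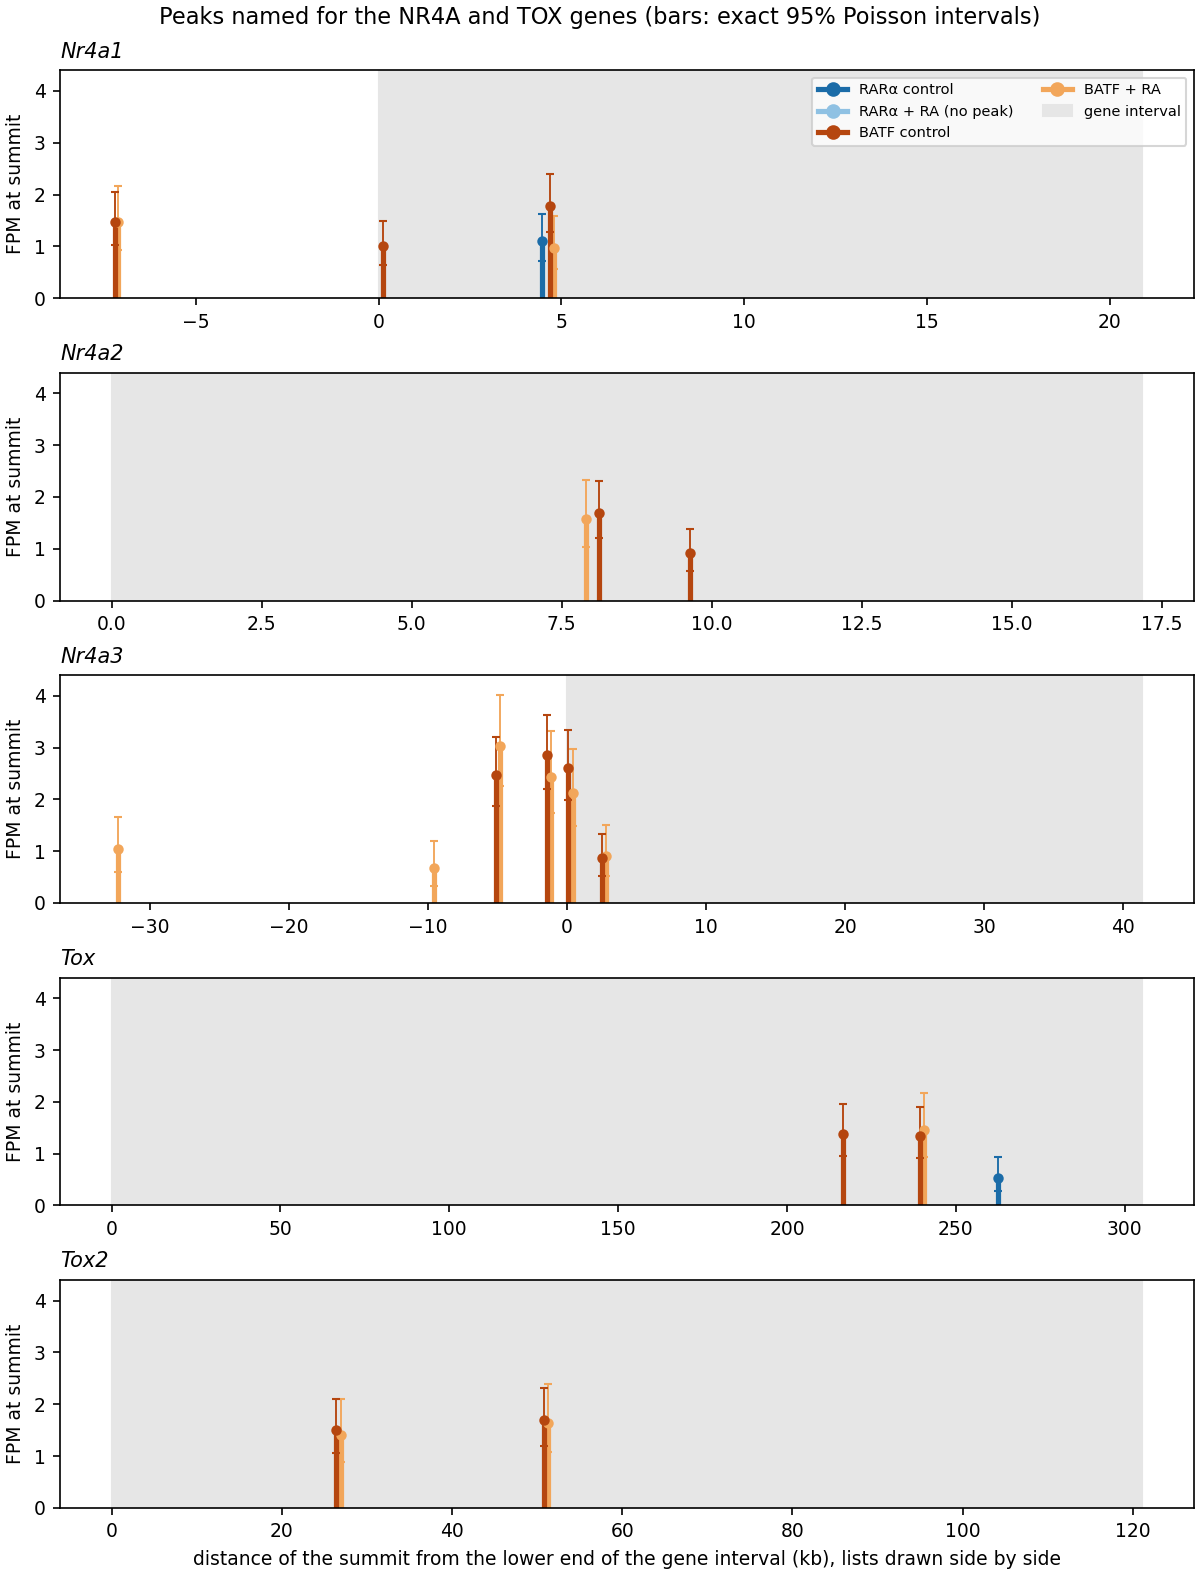
FPM at the summit of each of the 27 peaks (vertical axis) against the distance of the summit from the lower end of the gene interval in kb (horizontal axis), 1 panel per gene, with exact 95% Poisson intervals and the gene interval shaded. Bars of different lists are drawn side by side for clarity. RARα control bars stand in the Nr4a1 and Tox panels alone, and the tallest bars are the BATF bars around the lower end of Nr4a3.

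Nr4a1, which encodes the receptor also called NUR77, lies at chr15:101253902-101274795. It was the single gene of the 5 with RARα and BATF peaks at one position. The study already names Nr4a1 among the loci bound by both proteins. The RARα control peak spanned chr15:101258374-101259133 and its summit lay 4638 bp in from the lower end of the gene interval. It held 25 fragments (16.2 to 36.9), or 1.10 FPM, at a fold of 5.23 and a -log10 p of 12.7. Only 8.02% of the RARα control peaks had a higher fold. The IgG level there was 3.97 fragments, 1.38 times the genome background. The annotation placed the peak in the intergenic class and named 8 other genes beside Nr4a1, although the peak lies inside the Nr4a1 interval.

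The BATF peaks at this position were chr15:101258277-101258936 in control cells and chr15:101258420-101258655 with RA. Their summits lay 15 bp and 7 bp from the RARα summit. Over the 626 RARα control peaks that overlapped a BATF control peak the median summit offset was 110 bp (quartiles 41 and 263). The 15 bp offset to the BATF control summit was thus at the short end. The 7 bp offset crosses conditions and has no such background here. Summit coverage of BATF was 41 fragments in control cells and 16 with RA, or 1.77 and 0.97 FPM. The ratio of RA to control FPM was 0.55 (0.288 to 0.9999), and fold enrichment was 6.91 and 3.70. The IgG level was the same in both lists once put on one scale, at 5.0.

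No RARα peak with RA was called within 789093 bp of this RARα peak. At the depth of the RA pool, the same binding would give 24.8 fragments and a -log10 p of 11.95. The cutoff for RARα was 0.001, which 11 fragments would already pass. So at most 10 fragments could have lain over the position without a call, unless the stretch above the cutoff was shorter than 249 bp, the smallest length called. This puts the ratio of RA to control FPM at 0.40 or lower, with an interval of 0.17 to 0.87 at that bound. At this one position both intervals lay below 1, that of BATF only just, with its upper end at 0.9999. The BATF interval is 1 of 10 read without adjustment, and it holds 0.841, the median ratio of all 8605 overlapping BATF pairs. The RARα interval is taken at a bound set by a missing call, and was computed only because the peak was called in control cells alone. That choice by itself favours a ratio below 1, so the RARα interval does not add to that of BATF. The spread between cultures is unknown.

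Nr4a1 had BATF peaks at other positions as well. A peak at chr15:101246162-101247218, 6684 bp outside the gene and annotated as a CpG island, held 34 control and 24 RA fragments. These are 1.47 and 1.46 FPM, a ratio of 0.99 (0.564 to 1.72), at folds of 5.76 and 5.44. A control peak at chr15:101253830-101254205, across the lower end of the gene, held 23 fragments at a fold of 6.14 and had no overlapping RA peak. At the RA depth it would have 16.3 fragments and a -log10 p of 10.1, past the cutoff of 5, and at most 10 fragments could have gone uncalled. The ratio was then 0.61 or lower, with an interval at that bound of 0.26 to 1.34, so that neither a ratio like the 0.55 of the shared position nor one of 1 is set apart.

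Nr4a2, the gene of the receptor NURR1, lies at chr2:57106830-57124003 and had BATF peaks and no RARα peak. Its stronger BATF peak covered part of the 5′ UTR in exon 1 of 8, at chr2:57114513-57115116, and was of the promoter class. This peak held 39 control and 26 RA fragments, or 1.69 and 1.58 FPM, with a ratio of 0.94 (0.548 to 1.58). Its fold was 5.46 in control and 4.00 with RA, a wider gap than in the FPM. The IgG level set against it was 6.24 in control and 8.0 with RA on one scale, and the summit had shifted by 281 bp. The interval on FPM, which leaves IgG out, includes 1.

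The second Nr4a2 peak, chr2:57116333-57117044 over a CpG island, held 21 control fragments at a fold of 4.45. No RA peak overlapped it, and the nearest lay 1232 bp away. At the RA depth 14.9 fragments would be present, and at most 11 could go uncalled. The ratio was 0.74 or lower, with an interval at that bound of 0.32 to 1.60. The nearest RARα peaks to the gene were 770.9 kb away in control cells and 940.5 kb away with RA. In the RARα control list 1 peak number is missing around Nr4a2, so whether a nearer peak was left out is not known.

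Nr4a3, the gene of the receptor NOR1, lies at chr4:48045078-48086447 and carried the most and the strongest BATF peaks of the 5 genes. Its 4 control peaks spanned 7979 bp in all, around the lower end of the gene, and all 4 were overlapped by RA peaks. At least 4 control peaks were found at 15.7% of the 10348 genes with any BATF peak. With RA the gene had 6 BATF peaks, of which 5 lay within 10 kb of it. At least 6 were found at 143 of those genes (1.38%), a threshold set by the count of Nr4a3 itself. Nr4a3 was also the single gene of the 5 with more RA than control peaks, which held for 6.73% of genes.

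The outermost of the 4 shared Nr4a3 peaks, chr4:48039624-48040234, lay 4844 bp outside the gene. It held 57 control and 50 RA fragments, or 2.47 and 3.04 FPM, at a ratio of 1.23 (0.827 to 1.84) and folds of 9.55 and 11.09. In the RA list 7.50% of peaks had a higher fold. Of all overlapping BATF pairs, 94.5% had a lower ratio than this peak, although its own interval includes 1.

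The next Nr4a3 peak toward the gene, chr4:48042649-48043899, held 66 control and 40 RA fragments over a CpG island. These were 2.86 and 2.44 FPM, with a ratio of 0.85 (0.561 to 1.28). A peak of 2659 bp at chr4:48044321-48046979 spanned the start of the gene interval, and its detail column gave the 5′ UTR in exon 1 of 8 while its class was intergenic. It held 60 control and 35 RA fragments, a ratio of 0.82 (0.525 to 1.27), at folds of 10.04 and 7.83. The innermost peak, chr4:48047249-48047602, was the weakest, with 20 control and 15 RA fragments and a ratio of 1.06 (0.503 to 2.17). All 4 intervals include 1.

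The 2 Nr4a3 peaks found with RA alone were weak. One, chr4:48012189-48012455, lay 32623 bp outside the gene, held 17 fragments (1.04 FPM) at a fold of 4.91, and had its nearest control peak 27169 bp away. The same binding would give 23.9 fragments at the control depth, where 15 pass the cutoff, so that at most 14 could have gone uncalled. The ratio of control to RA was 0.59 or lower, with an interval at that bound of 0.27 to 1.26. The other, chr4:48034841-48035135, covered a LINE element 9943 bp outside the gene and held 11 fragments at a fold of 3.80 and a -log10 p of 5.5, close to the cutoff. Here the bound on the ratio was 0.84 (0.35 to 2.07). For both, a control level equal to that with RA lies inside the interval. No RARα peak lay within 1460.8 kb of Nr4a3 in control cells or within 2405.6 kb with RA.

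Tox, at chr4:6686353-6991557, is the longest of the 5 genes at 305.2 kb and carried the second RARα peak. This peak, chr4:6950520-6950799, was intronic and covered an MTD repeat of the ERVL-MaLR family. It held 12 fragments (6.2 to 21.0), or 0.53 FPM, at a fold of 3.35 and a -log10 p that rounds to 5.0, and 36.5% of RARα control peaks had a higher fold. The IgG level there was the genome background. Its -log10 q was 0.7, so unlike the Nr4a1 peak, with 7.6, it did not reach a q-value of 0.05.

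No BATF peak lay near the Tox RARα peak: the closest were 25423 bp away in control cells and 25458 bp away with RA. At most 8 RARα fragments could have gone uncalled there with RA. The ratio was thus 0.67 or lower, with an interval at that bound of 0.24 to 1.79, and at this depth a difference could not be told from none.

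The BATF peaks of Tox lay in intron 1 of 8. One, chr4:6924809-6925097, held 31 control and 24 RA fragments, or 1.34 and 1.46 FPM, with a ratio of 1.09 (0.612 to 1.92). The other, chr4:6901984-6902424, held 32 control fragments at a fold of 7.48, the highest BATF fold at Tox, and had no RA peak within 22359 bp. It would have 22.7 fragments and a -log10 p of 14.6 at the RA depth. At most 10 fragments could have gone uncalled, which gives a ratio of 0.44 or lower (0.19 to 0.92 at that bound). This bound was computed only because the peak was missed with RA, which by itself favours a ratio below 1. With RA, one Tox peak was thus as high in FPM and the other was not called. Their intervals, 0.612 to 1.92 and 0.19 to 0.92 at the bound, overlap, so a difference between the peaks is not shown.

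Tox2 lies at chr2:163203058-163324172 and had BATF peaks in introns, all matched with RA, and no RARα peak. The peak in intron 1 of 8, chr2:163229059-163229388, held 35 control and 23 RA fragments, or 1.51 and 1.40 FPM, a ratio of 0.92 (0.522 to 1.61). The peak in intron 2 of 8, chr2:163253295-163253921, held 39 and 27 fragments, or 1.69 and 1.64 FPM, a ratio of 0.97 (0.574 to 1.63). Its fold was 4.39 in control and 5.27 with RA, while the IgG level was 8.0 and 6.0 on one scale. Fold and FPM therefore point in different directions at this site.

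**Figure D2:**
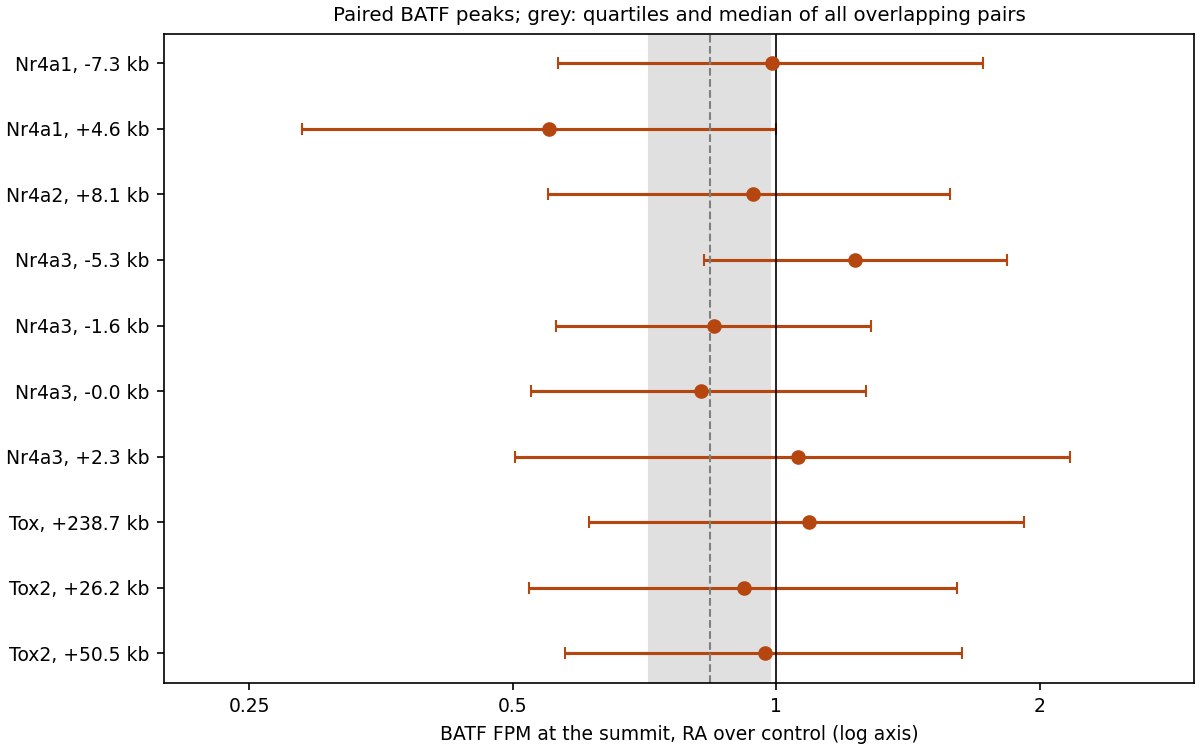
Ratio of BATF FPM at the summit, RA over control (horizontal log axis), for the 10 overlapping pairs, each named by its gene and the distance of its control summit from the lower end of the gene interval, with exact conditional 95% intervals. The dashed line and grey band are the median (0.841) and quartiles (0.716 and 0.985) of all 8605 pairs, and 9 of the 10 intervals cross 1.

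Across the 5 genes, 12 of 13 BATF control peaks (92.3%, 66.7 to 98.6) had a BATF RA peak within 5 kb, against 69.9% of all BATF control peaks. By overlap of at least 1 bp these shares were 10 of 13 (76.9%, 49.7 to 91.8) and 54.4%. The 4 control peaks of Nr4a3 lie close together and are not independent of each other, and 2 of the control peaks count as matched within 5 kb although no RA peak overlaps them. All 13 would pass the cutoff at the RA depth, as would 93.6% of all BATF control peaks, and among the latter 57.4% had an overlapping RA peak. In the other direction, 11 of 12 BATF RA peaks lay within 5 kb of a control peak (91.7%, 64.6 to 98.5), against 96.3% of the list, and 10 of 12 (83.3%, 55.2 to 95.3) overlapped one, against 93.6%. The interval of the first share, 66.7 to 98.6, holds the share of the whole list.

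At the 10 overlapping pairs, FPM were lower with RA in 7, against 77.0% of all 8605 pairs. Fold enrichment was lower in 7 of 10 (70.0%, 39.7 to 89.2), against 75.3%. The median ratio of FPM was 0.956 (quartiles 0.871 and 1.04) at the 10 pairs and 0.841 (0.716 and 0.985) over all pairs, and the median ratio of folds was 0.917 and 0.828. A single interval, that of the Nr4a1 peak shared with RARα, lay below 1, with its upper end at 0.9999, while 0 lay above 1 and 9 included it, with no adjustment for the 10 intervals read. Of all pairs 4.0% had a lower ratio than that Nr4a1 peak. Control peaks without an overlapping RA peak are outside these counts. Among them the Tox peak at chr4:6901984-6902424 had an interval below 1 at its bound (0.19 to 0.92). Those of Nr4a1 (0.26 to 1.34) and Nr4a2 (0.32 to 1.60) included 1. Such bounds were computed only for peaks called in control cells and missed with RA. That choice by itself favours a ratio below 1. Summits shifted by a median of 10 bp at the 10 pairs and 61 bp over all.

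RARα control peaks had a BATF control peak within 5 kb in 1 of 2 cases at these genes, and in 61.9% of the whole list. Neither of the 2 had a RARα RA peak within 5 kb, which 10.2% of the list did. Seen from BATF, 2 of 13 control peaks (15.4%, 4.33 to 42.2) had a RARα control peak within 5 kb, against 7.16% of all. These 2 are the Nr4a1 peaks, one overlapping the RARα peak and the other 4169 bp from it.

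**Figure D3:**
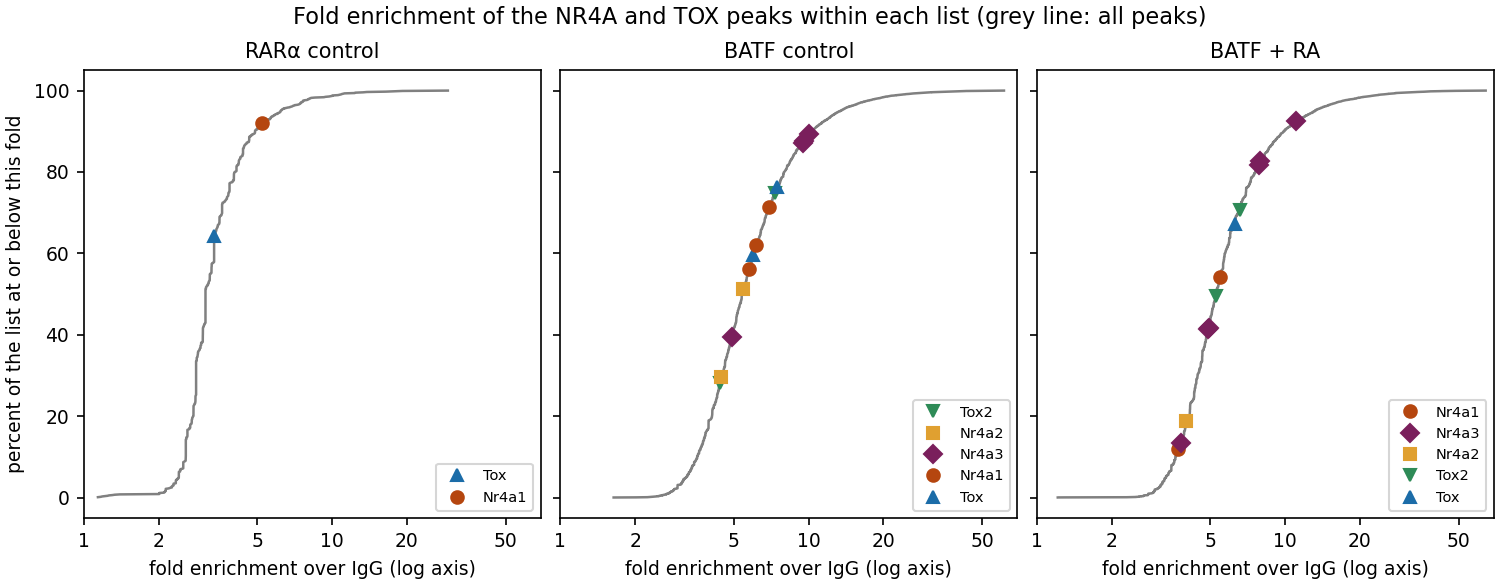
Percent of each list at or below a given fold enrichment (grey line, vertical axis) against fold enrichment over IgG (horizontal log axis), with the peaks of the 5 genes marked. The Nr4a1 peak has 8.02% of the RARα control list above it, and the highest mark with RA is the outermost shared Nr4a3 peak at a fold of 11.09.

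The BATF peaks of the 5 genes had medians close to those of their lists. Control folds ran from 4.39 to 10.04 with a median of 6.14, against 5.40 for the list, and summit fragments from 20 to 66 with a median of 35, against 31. With RA the folds ran from 3.70 to 11.09 with a median of 5.36, against 5.29, and the fragments from 11 to 50 with a median of 24, against 22. The RARα peaks, at folds of 3.35 and 5.23, both lay above the 3.09 that was the median of their list. By class, of the BATF control peaks 2 were of the promoter class, 4 intronic and 7 intergenic, while 58.7% of the list was promoter, 20.1% intron and 18.1% intergenic. With RA 1 was promoter, 3 intronic and 8 intergenic, against 64.6%, 17.0% and 16.2%. The class depends on the annotation used: among peaks classed as intergenic, 4 of 7 in control and 3 of 8 with RA lay inside or across the end of the interval of their own gene. Over the whole lists, 10.9% and 11.0% of intergenic peaks overlapped the interval of any protein-coding gene.

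Around the 5 genes stand 29 others of the same programme, in which NFAT and EGR factors lie upstream of or beside NR4A and TOX. Of the 29, 13 (44.8%) were named by a RARα control peak, 3 by a RARα RA peak, 26 (89.7%) by a BATF control peak and 24 (82.8%) by a BATF RA peak. The matching shares of all protein-coding genes are 6.85%, 3.05%, 46.2% and 36.4%. These genes were chosen for their part in T cells and with earlier results of these data known. The study itself lists Irf4, Prdm1 and Tbx21 among BATF loci also occupied by RARα, and elsewhere gives Tbx21 as mainly bound by BATF. The gap therefore describes this list and was not tested. Their peak numbers were 15, 3, 132 and 73. The RARα control count rests in large part on weak or distant peaks: 8 genes had a peak within 10 kb, and 1 had one with a -log10 p of at least 10.

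The NFAT and EGR factors had RARα control peaks at 4 of 6 genes (Nfatc1, Nfatc2, Nfatc3 and Egr1) and BATF peaks at all 6 in both conditions. The Egr1 peak was the strongest RARα peak of the 29 genes, with 37 fragments at a fold of 7.64, 6450 bp from the gene and over a BATF control peak. The 3 genes with a RARα RA peak were all in this group: Nfatc1 (fold 2.53), Nfatc2 (2.78) and Egr2 (3.03). Nfatc1 and Nfatc2 also had control peaks, 2 and 1, but the control and RA peaks lay at least 13062 bp apart.

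Of 10 partners and opposing factors, 6 had a RARα control peak and 0 had one with RA. These 6 were Irf4, the DNA-binding partner of BATF, Prdm1, the gene of BLIMP1, the T-box genes Eomes and Tbx21, and Bach2 and Id3, known from memory and precursor cells. The peaks lay 61479 bp from Id3, 46277 bp from Irf4, 33343 bp from Prdm1 and 11630 bp from Tbx21. Those of Eomes lay 254 bp and 2102 bp from the gene, and that of Bach2 inside the interval of the gene. The Prdm1 peak lay 22145 bp from the nearest BATF control peak, so it was not shared with BATF within 5 kb. Their highest RARα folds ran from 2.44 at Id3 to 4.19 at Prdm1, below the 5.23 of Nr4a1. Tcf7, the gene of TCF1 and a marker of precursor cells, had no RARα peak and the most BATF control peaks of the 29 genes, 15, with 5 with RA.

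Inhibitory receptors and ectoenzymes had fewer peaks. RARα control peaks were at 2 of 9, Cd244a (fold 4.02, 42618 bp from the gene) and Entpd1 (2.44), the gene of CD39, and none were called with RA. BATF peaks were at 7 of 9 in control cells and 5 of 9 with RA. Lag3 had none in either list, and Havcr2, the gene of TIM3, had 1 with RA alone at a fold of 6.30. Pdcd1, the gene of PD-1, had 1 BATF peak in each list. Of the other TOX genes Tox4 had 2 and 2 BATF peaks and Tox3 none. Of 2 other nuclear receptor genes, Nr3c1, the glucocorticoid receptor gene, had a RARα control peak (2.69) and 4 BATF peaks in each list, and Nr1h2 had 1 BATF peak in each list.

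BATF control peaks outnumbered RA peaks at 21 of the 29 genes. The share of all genes with more control than RA peaks is not given here, so the 21 cannot be set against it. RA peaks outnumbered control peaks at 1 of the 29, Havcr2, against 6.73% of genes with a BATF peak in either list. The lists differ in length, at 15812 and 9899 peaks, and the pools differ in depth. At the RA depth 93.6% of all BATF control peaks would still pass the cutoff. The part of depth in the counts of single genes was not tested. Nr4a3, with 4 control and 6 RA peaks, also had more RA than control peaks, a pattern not tested against that share.

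**Figure D4:**
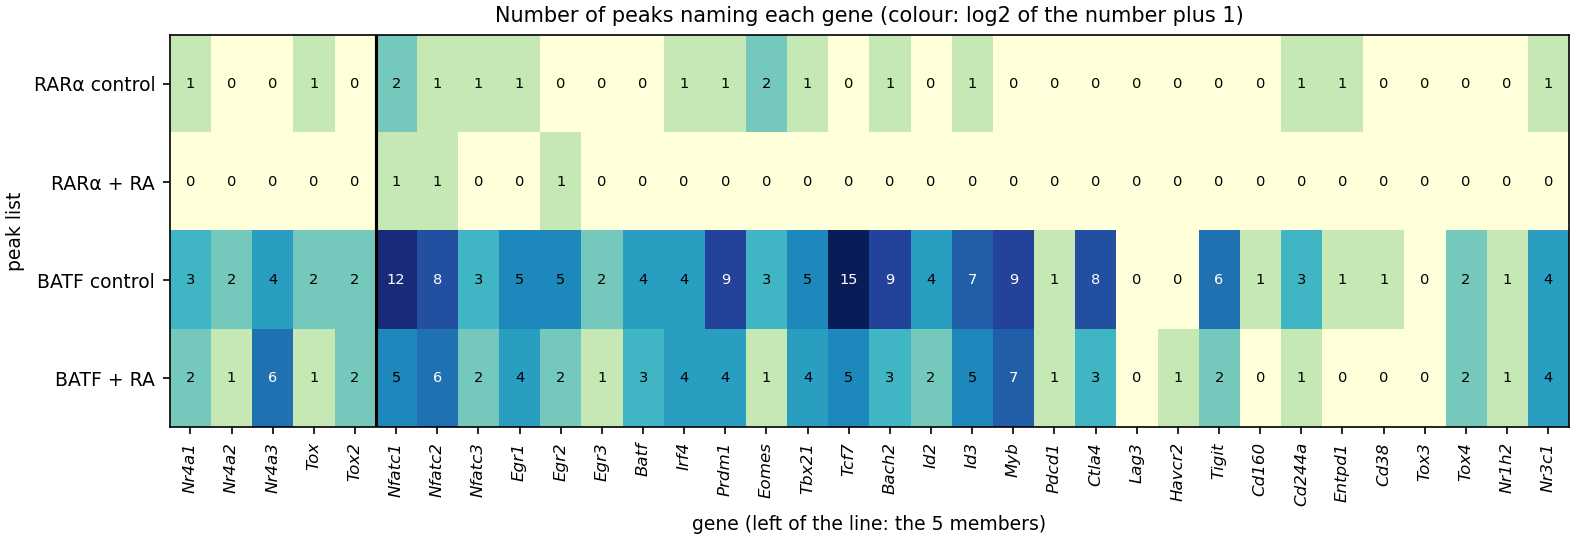
Number of peaks naming each gene in the 4 lists (numbers in the cells, colour by log2 of the number plus 1), with the NR4A and TOX genes left of the line and the 29 programme genes to the right. RARα with RA is empty at all 5 NR4A and TOX genes and holds 1 peak each at Nfatc1, Nfatc2 and Egr2.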

How the data were processed

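ChIP-seq for RARα and BATF in CD8 T cells kept with or without RA was analysed from 4 annotated peak lists, 1 per group as the labels give it. The authors trimmed paired-end reads, aligned them to mm10 with Bowtie2 and called peaks with MACS 2.2.7.1 (2 pooled ChIP files against 1 IgG file, effective genome size 1870000000 bp), at p = 0.001 for RARα and 1e-05 for BATF. Genes and classes of peaks came with the deposited lists, and HOMER is among the tools of the submitters' notes. The deposited pileup is a signal, the fragments over the summit, scaled in the BATF control list alone to 0.9875 per fragment. Fragments were recovered by dividing by this step. The deposited fold enrichment is a ratio of the pileup plus 1 to the local IgG level plus 1, from which the IgG level was recovered. Deposited p-values and q-values are on the -log10 scale. As a check, a Poisson tail at the recovered IgG level gave the deposited p-value within 0.05 (on the -log10 scale) for 100.0% of the peaks compared in each list.

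The 5 genes, the 29 programme genes and the comparisons were chosen with earlier results of these data known, and 1 further gene of the programme list is not reported here. All peaks of the 5 genes are named, and programme genes are named in counts or where they have a RARα peak. The genes most like a member were found by Euclidean distance over the 4 lists of log2 of the number of peaks plus 1, with ties broken by the highest BATF control fold. Peaks were counted as shared within 5 kb after the study's methods, and pairs had to overlap by at least 1 bp. Depth was 16424269 to 23110180 fragments per pool and 11410673 for IgG, so that a single summit rests on 11 to 66 fragments. Levels with the other pool's depth scale fragments and IgG to it, and the bound for an uncalled position is the most fragments that miss the cutoff there. Shares have Wilson intervals, counts Poisson intervals and ratios exact conditional intervals, at 95%. The distances between peaks and the ratio intervals were tested on simulated data, and the other steps were not.

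Peak numbering shows that 121, 130, 416 and 257 numbers are missing from the lists (RARα control, RARα with RA, BATF control, BATF with RA). Around the 5 genes none was missing except 1 in the RARα control list around Nr4a2. Motifs were not analysed here, for want of sequence. Alternatives were other thresholds, gene windows, overlap distances, merged peaks and scalings. Software was scipy 1.17.1, pandas 2.3.3 and numpy 2.4.6 under Python 3.11.15, with figures from matplotlib 3.10.9.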

Additional observations from a re-analysis of the deposited data

How the results depend on the processing

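Of 46 values recomputed under alternatives, 36 stayed within the limits set for a change and 10 moved. Reversals were not scored. Some values could not change, such as the 0 RARα peaks with RA under stricter cutoffs. The RARα control peaks of the 5 genes went from 2 to 1 at a -log10 p of at least 5, at one of at least 10 and at a fold of at least 5, the Nr4a1 peak being the one that stayed. With the first of these the share with a BATF control peak within 5 kb went from 50.0% to 100.0%, now 1 of 1. BATF control peaks went from 13 to 20 when every peak within 100 kb of a gene was counted, and BATF RA peaks from 12 to 7 at a -log10 p of at least 10 and to 7 at a fold of at least 5. Programme genes with a RARα control peak went from 13 to 8 within 10 kb of the gene and to 1 at a -log10 p of at least 10, and those with a RARα RA peak from 3 to 0 at the latter. Stricter cutoffs and wider windows change these counts by construction, and no other cause was tested. The alternatives of counting control peaks that pass at the RA depth and of leaving out Nr4a3 were added after seeing the data. No paired analysis was possible because each condition has 1 list, called on pooled files. Leaving out a replicate was not possible for the same reason. Depth limits single ratios: at 11 to 66 fragments a summit, 9 of 10 intervals include 1.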

Other observations

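The tallest BATF site within 100 kb of the 5 genes was not named for any of them. It lay 99.3 kb from Tox2 at chr2:163102978-163103755, held 194 control fragments at a fold of 38.52, and ranked 37 of 15812 in the list. With RA it held 133 fragments at a fold of 42.33 and ranked 14 of 9899, or 8.39 FPM in control and 8.10 with RA. A weak RARα control peak, chr2:163103304-163103558, lay within it with 11 fragments at a fold of 2.97. The annotation assigned all of these peaks to Gtsf1l, Mybl2, Ift52, Sgk2 and Mir7003, so which gene the site belongs to is not given by these data.

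Near Nr4a1, a BATF peak over the promoter of Atg101, an autophagy gene, lay 8.9 kb from the other end of the gene. It held 39 control and 28 RA fragments, or 1.69 and 1.70 FPM.

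Among 10821 genes, 52 others had the peak numbers of Nr4a1 in the 4 lists (1, 0, 3 and 2). Those nearest in the highest BATF control fold (6.91 at Nr4a1) were Cyba, a subunit gene of the NADPH oxidase (6.91), Tex22 (6.92) and Jun, the AP-1 gene (7.09). For Tox (1, 0, 2 and 1, highest fold 7.48) 66 others had the same numbers, with Zkscan6 (7.53), Slc26a8 (7.57) and Anxa3 (7.59) nearest. Likeness here rests on small peak numbers over 4 lists.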
